A study of Mus musculus with 8 samples.

Results

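The complement system was followed here through 32 genes for its components, receptors and regulators, chosen by symbol from the 45583 gene symbols counted in juvenile mouse ovary. The list held 6 genes of classical initiation, 4 of lectin initiation, the central component *C3*, 2 genes of the alternative pathway, 7 of the terminal pathway, 5 regulators found in fluids, 4 regulators on membranes and 3 receptors. The membership rule used names only and no measured value, though the members were chosen with earlier results of these data known. RNA came from 1 snap-frozen ovary of each of 8 female mice on a C57/Bl6 background, all 3 weeks old, with 4 WT animals (1118, 1119, 1120 and 1121) and 4 GOAT KO animals (1139, 1140, 1141 and 1146). GOAT, encoded by *Mboat4*, is the enzyme that attaches a fatty acid to the hormone ghrelin. The GOAT KO line came from Regeneron, heterozygous parents were crossed to give WT and GOAT KO littermates, and each animal gave 1 library. No other allele and no treatment are given for either group, and the deletion is carried by the whole animal rather than by the ovary alone. The question was how complement transcripts in the ovary compare between the groups labelled GOAT KO and WT.

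Complement is a cascade of plasma and cell-surface proteins that marks targets for removal. The classical route starts when C1q binds antibody or dying cells, the lectin route when mannose-binding lectins and their proteases meet sugars, and the alternative route amplifies the deposition of C3, on which all of them converge. Cleavage of C5 then begins assembly of a pore from the terminal components, while regulators in fluid and on host membranes limit each step. Liver is the main source of the plasma proteins, macrophages make C1q, and follicular fluid of the ovary also contains complement proteins.

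Counts on genes summed to between 16147216 and 19481798 per library, and 85.92% to 87.02% of reads mapped to the genome. *Mboat4* itself, the targeted gene, had 1, 1, 1 and 3 counts in the WT libraries and 5, 7, 7 and 8 in the GOAT KO libraries, a direction opposite to that of a lost transcript. The deleted part of the gene is not given in the sources used here, so these few counts may lie outside it and do not settle whether the labels are right. The PCR that the study ran for this transcript was not analysed here. The groups are called the libraries labelled WT and labelled GOAT KO, and directions follow the labels. Summed granulosa cell markers (5108 to 6982 CPM, counts per 1000000 after TMM scaling of library sizes) and oocyte markers (1186 to 1450 CPM) were high in every library. Library GOAT KO 1139 stood apart from the rest in adipose markers. Summed markers of adipose tissue reached 514.2 CPM there against 13.94 to 32.57 CPM in the other 7 libraries. The study left out 1 library per group and its text names neither. Earlier work on these data took them to be WT 1120 and GOAT KO 1139, which could not be checked against a statement of the study. Results are therefore given with all 8 libraries and with the 6 that remain without these libraries. In RNA from whole ovary, fewer cells of a type and less RNA per cell cannot be told apart.

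Of the 32 genes, 25 passed the filter on low counts and 7 did not. The 25 that passed were compared in a fit across all genes with edgeR's quasi-likelihood test. A gene was called when its p before adjustment was below 0.05 and its log2 fold change was above 0.5 or below -0.5, a rule taken from the methods of the study. With 8 libraries 2 complement genes were called, *Masp2* and *C3*, both higher in the libraries labelled GOAT KO. The background was 278 of 16601 genes, or 1.67%, with 159 higher and 119 lower. On p before adjustment alone, 4 complement genes passed (*Masp2* and *C3* higher, *C1qb* and *C1qc* lower), where 767 genes or 4.62% passed among all. After Benjamini-Hochberg adjustment across the whole table none was below 0.05 in edgeR, where 4 genes or 0.0241% of all were, and DESeq2 gave 1 complement gene, *Masp2*. The median log2 fold change of the 25 was -0.04, beside 0.00 over all genes.

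With 6 libraries 4 complement genes were called, *Masp2*, *C3* and *C8g* higher and *Vtn* lower, against a background of 398 of 16641 genes or 2.39%. On p before adjustment alone there were 7, adding *C1qb*, *C1qc* and *C7*, all lower, against 9.46% of all genes. *Masp2* passed at an adjusted p under 0.05, as did 20 genes or 0.120% of all. With 8 libraries no complement gene of the 25 had groups without overlap, and 484 genes or 2.92% of all did. With 6 libraries 5 had none (*Masp2* and *C8g* with the libraries labelled GOAT KO higher, *C7*, *Vtn* and *Cr1l* with them lower), where 15.8% of all genes did. The median log2 fold change was then -0.10, with 10 positive and 15 negative values.

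**Figure D1:**
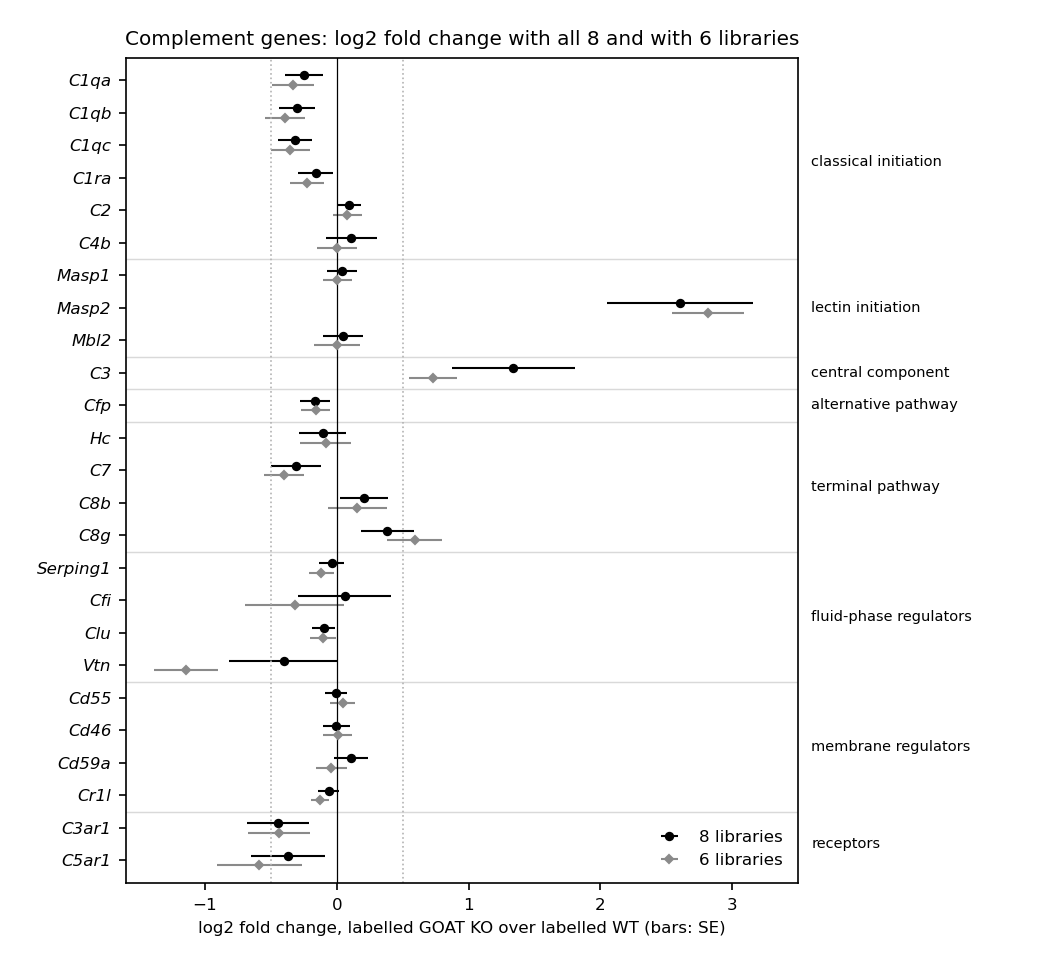
Log2 fold change (x axis) of the 25 complement genes above the low-count filter, libraries labelled GOAT KO over those labelled WT, with all 8 libraries (black circles) and with 6 (grey diamonds). Bars are SE and dotted lines mark the threshold of 0.5. *Masp2* lies farthest from 0 in both fits, at 2.60 and 2.82, *C3* moves from 1.34 to 0.73, and *Vtn* from -0.40 to -1.15.

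Levels between genes were compared per kilobase of annotated exon (RPKM, from the TMM-scaled CPM). *Clu*, for clusterin, a secreted chaperone that binds the terminal complex, was highest at 330 ± 39.0 RPKM (SD, n = 4) in the libraries labelled WT and 308 ± 20.5 in those labelled GOAT KO. It made up between 64.1% and 73.04% of the summed CPM of all 32 genes. *Serping1*, for the C1 inhibitor, followed at 64.2 ± 10.1 and 62.5 ± 1.57 RPKM. The ranges of both over the 8 libraries, 289.6 to 382.3 and 55.17 to 76.82 RPKM, did not touch. Below them came *C1qb* at 14.98 ± 2.60 and 12.1 ± 1.55 RPKM and *C1qa* at 11.9 ± 1.94 and 10.01 ± 1.45 RPKM, and neighbouring genes in that part of the order overlapped across libraries. *C3* spanned 4.451 to 35.97 RPKM, a range that covers those of *C1qb* and *C1qa*. The receptors *C3ar1* (0.5281 to 1.266 RPKM) and *C5ar1* (0.1902 to 0.5303 RPKM) were near the lower end. The most abundant of the 32 transcripts were thus regulators, with initiation and terminal components well below them.

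**Figure D2:**
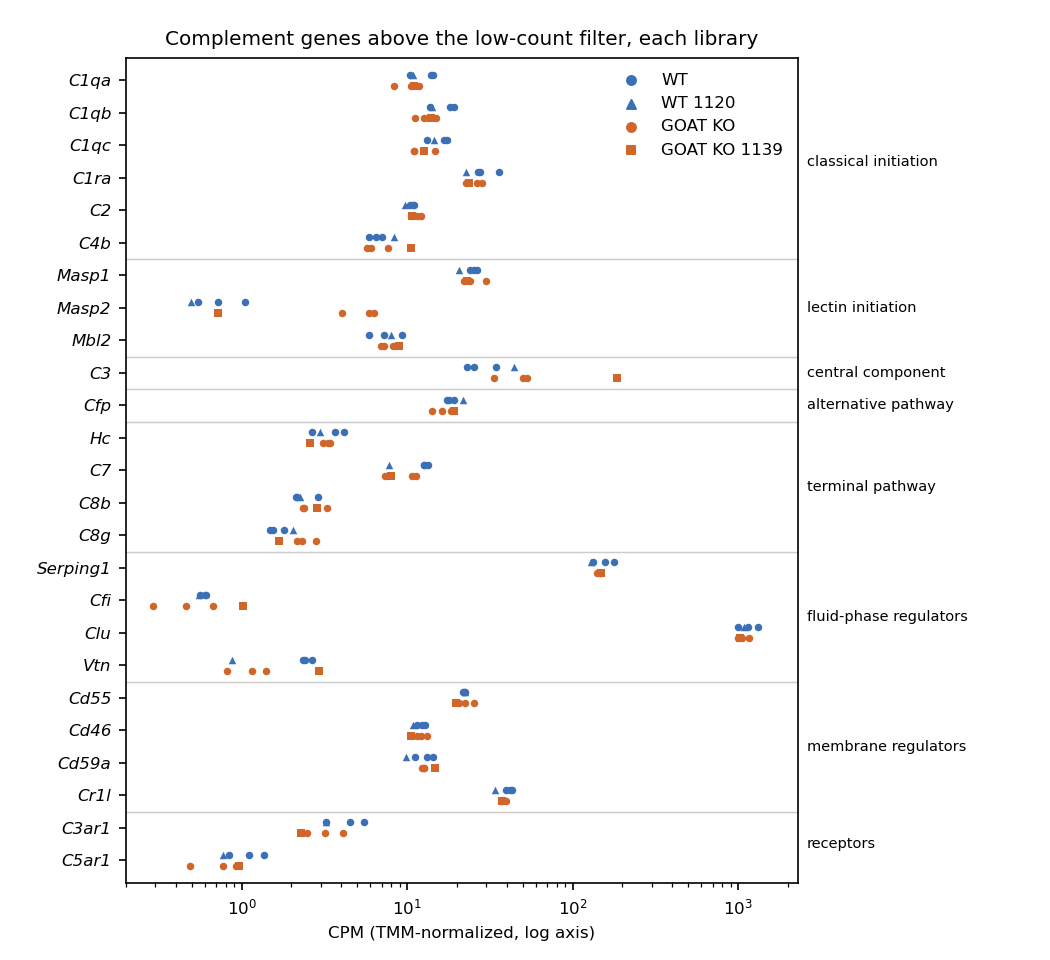
CPM (log axis) of each of the 25 tested complement genes in each of the 8 libraries, WT in blue and GOAT KO in orange, with WT 1120 as triangles and GOAT KO 1139 as squares. *Clu* and *Serping1* lie far to the right, 3 of the 4 GOAT KO points of *Masp2* are set apart from the WT points, and the square of *C3* stands at 185 CPM.

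Promoter letters are shown for 3 genes on which the results turn, *Masp2* and *C3* as the called genes and *C1qb* as a C1q chain. They are the 250 bases before the RefSeq start on the strand of the gene, build GRCm38.p6, at chr4:148602294-148602543 (plus strand) for *Masp2*, chr17:57228137-57228386 (minus strand) for *C3* and chr4:136886201-136886450 (minus strand) for *C1qb*. Capitals mark a match to TTGCNNAA, a core recognised by C/EBP factors, in *C3*, and to GAGGAA, the core recognised by PU.1, in *C1qb*.
Masp2: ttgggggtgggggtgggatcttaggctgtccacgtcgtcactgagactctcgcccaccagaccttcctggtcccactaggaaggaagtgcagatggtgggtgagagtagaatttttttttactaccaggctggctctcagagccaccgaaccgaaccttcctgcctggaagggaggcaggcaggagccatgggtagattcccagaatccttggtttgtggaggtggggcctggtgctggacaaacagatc
C3: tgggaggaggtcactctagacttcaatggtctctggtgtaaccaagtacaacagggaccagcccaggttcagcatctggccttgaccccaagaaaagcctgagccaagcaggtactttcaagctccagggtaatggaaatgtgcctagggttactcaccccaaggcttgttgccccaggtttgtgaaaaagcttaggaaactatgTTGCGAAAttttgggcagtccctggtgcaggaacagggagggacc
C1qb: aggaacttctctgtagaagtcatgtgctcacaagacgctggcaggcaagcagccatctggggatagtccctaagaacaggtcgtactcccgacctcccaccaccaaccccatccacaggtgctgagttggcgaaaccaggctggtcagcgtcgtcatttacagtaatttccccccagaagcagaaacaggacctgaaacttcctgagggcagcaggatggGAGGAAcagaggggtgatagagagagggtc

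A promoter entry was found for 24 of the 32 genes, and 3 motifs were searched on both strands of the 250 bases. GAGGAA was in 4 of the 24 (16.7%) and in 23.1% of 27025 promoters, TTGCNNAA in 2 (8.33%) and in 9.55%, and TATAAA, the TATA box, in 4 (16.7%) and in 13% of promoters. The shares of complement promoters were close to those of all promoters for all of these motifs. In *C1qb* the GAGGAA match lay 30 to 25 bases before the start, and in *C1qc* it lay 193 to 188 bases before it on the opposite strand. In *C3* the TTGCNNAA match lay 45 to 38 bases before the start. The *Masp2* window had no match to any of the motifs. A match is a string of letters, not evidence of binding.

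In the lectin route *Masp2*, for the serine protease that cleaves C4 and C2, was called higher in the libraries labelled GOAT KO. Its level was 1.053, 0.7223, 0.4939 and 0.5452 CPM in WT 1118, 1119, 1120 and 1121 (17, 13, 9 and 10 counts). It was 0.7179, 4.033, 5.887 and 6.334 CPM in GOAT KO 1139, 1140, 1141 and 1146 (12, 66, 115 and 109 counts). GOAT KO 1139 lay among the WT libraries and the other 3 lay above all of them. The log2 fold change was 2.60 ± 0.55 (SE), with an edgeR p of 0.000682 and an adjusted p of 0.666. With 6 libraries it was 2.82 ± 0.28 with an adjusted p of 0.00163. When single libraries were left out it ran from 2.35 to 2.95, and without GOAT KO 1139 the edgeR adjusted p was below 0.05 as well. Both of these edgeR fits leave out GOAT KO 1139, the library labelled GOAT KO that lay among the WT libraries. Leaving out any other single library gave no edgeR adjusted p below 0.05. An exact two-sided permutation test of the CPM gave p = 0.0857 with 8 libraries. The scaled levels were low throughout, 0.213 ± 0.0764 RPKM and 1.28 ± 0.772 RPKM (SD, n = 4).

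*Masp2* lies at chr4:148602554-148615499 on the plus strand, and its span overlaps *Tardbp* on the minus strand, which had between 7245 and 9810 counts per library. Whether the counting used the strand is not stated, so reads of the pair may not be fully separated. Reads across splice junctions carry the strand of the intron, and *Masp2* had 32 such reads at annotated introns. They were 0, 0, 0 and 1 in the libraries labelled WT and 0, 1, 18 and 12 in those labelled GOAT KO. The groups overlapped in this readout, since GOAT KO 1139 had 0 and GOAT KO 1140 had 1, as WT 1121 did. The 32 reads fell on introns 2, 3, 4, 5, 6, 7, 9 and 10 of the 10 introns of its longest protein-coding transcript and on 1 intron that only another annotated transcript has. The last of these had 4 reads, 1 of them in WT 1121 and 1 in GOAT KO 1140. The next gene on the same strand before *Masp2*, *Srm*, ends 7560 bases away and had 979 to 1339 counts, with the groups overlapping. The targeted gene *Mboat4* lies on chromosome 8. *Dab1*, not a gene of the list, lies on the same chromosome as *Masp2* but far from it. It ends 21472 bases before *C8b*, which starts at chr4:104766317. *Dab1* had 76 to 142 counts in the libraries labelled GOAT KO against 17 to 18 in those labelled WT. Groups without overlap were found for 2.92% of all genes with 8 libraries. *C8b* and the C1q chains on that chromosome were not called. Whether the groups differ in sequence around *Masp2* was not tested.

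The other lectin genes showed no called difference. *Mbl2*, for a mannose-binding lectin, read 7.62 ± 1.45 CPM in the libraries labelled WT and 7.85 ± 0.929 in those labelled GOAT KO, a log2 fold change of 0.04 ± 0.15. *Masp1*, for the protease that activates MASP-2, read 24.2 ± 2.53 and 24.8 ± 3.56 CPM, a log2 fold change of 0.04 ± 0.11. Both are close to 0 in each fit. *Mbl1*, for the other mannose-binding lectin, had no count in any library, which allows at most 3 counts or 0.154 to 0.1858 CPM per library.

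*C3*, the component on which the routes converge, was called higher. Its level was 34.32, 22.89, 44.29 and 25.46 CPM in WT 1118, 1119, 1120 and 1121. It was 185, 50.17, 53.03 and 33.59 CPM in GOAT KO 1139, 1140, 1141 and 1146. GOAT KO 1139 was far above every other library, and the groups overlapped because GOAT KO 1146 lay below WT 1118 and 1120. The log2 fold change was 1.34 ± 0.47 with an edgeR p of 0.0157 and an adjusted p of 0.983. With 6 libraries it was 0.73 ± 0.18, with a p of 0.00198 and an adjusted p of 0.321 in edgeR. Without GOAT KO 1139 alone it was 0.52, the lowest value when single libraries were left out, and the highest was 1.60.

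Splice reads showed the same highest library for *C3*, which lies at chr17:57203970-57228136 on the minus strand. Reads across its annotated junctions were 177, 133, 299 and 172 in the libraries labelled WT and 1384, 361, 490 and 201 in those labelled GOAT KO, and 39 of 43 annotated introns had at least 1. Adipose tissue is a known source of C3, factor B and factor D. The adipose list had 5 tested genes of 7. All 5 were called higher with 8 libraries and 1 with 6, where 1.67% and 2.39% of all genes were called. Its summed levels were 13.94 to 29.6 CPM in the libraries labelled WT and 19.35 to 514.2 CPM in those labelled GOAT KO. Without GOAT KO 1139 the last range was 19.35 to 32.57 CPM. The adipose gene called with 6 libraries, named here after its values were seen, was *Plin1*, for the coat protein of lipid droplets. Its log2 fold change was then 0.78 ± 0.23 (edgeR p of 0.00717), beside 0.73 for *C3*. The groups of *Plin1* did not overlap, as for 15.8% of all genes. The other tested adipose genes were not called with 6 libraries, at 0.00 for *Adipoq*, 0.08 for *Fabp4*, 0.44 for *Retn* and -0.76 for *Cidec*. *Cfd*, for factor D, the adipose-derived protease of the alternative pathway and not one of the 32, had 26, 18, 13 and 81 counts in the libraries labelled WT. It had 2710, 102, 57 and 9 in those labelled GOAT KO. Its log2 fold change was 4.45 with 8 libraries and 0.43 with 6, where it was not called. The part of adipose RNA in the *C3* values was not tested.

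GOAT KO 1139 held the highest value of 5 of the 25 tested complement genes, *C4b*, *C3*, *Cfi*, *Vtn* and *Cd59a*, which is 20% of them, while 12.27% of all tested genes were highest there. WT 1118 held the highest value of 7, all 3 C1q chains, *C1ra*, *Mbl2*, *Serping1* and *Clu*, or 28% against 20.64% of all tested genes.

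**Figure D3:**
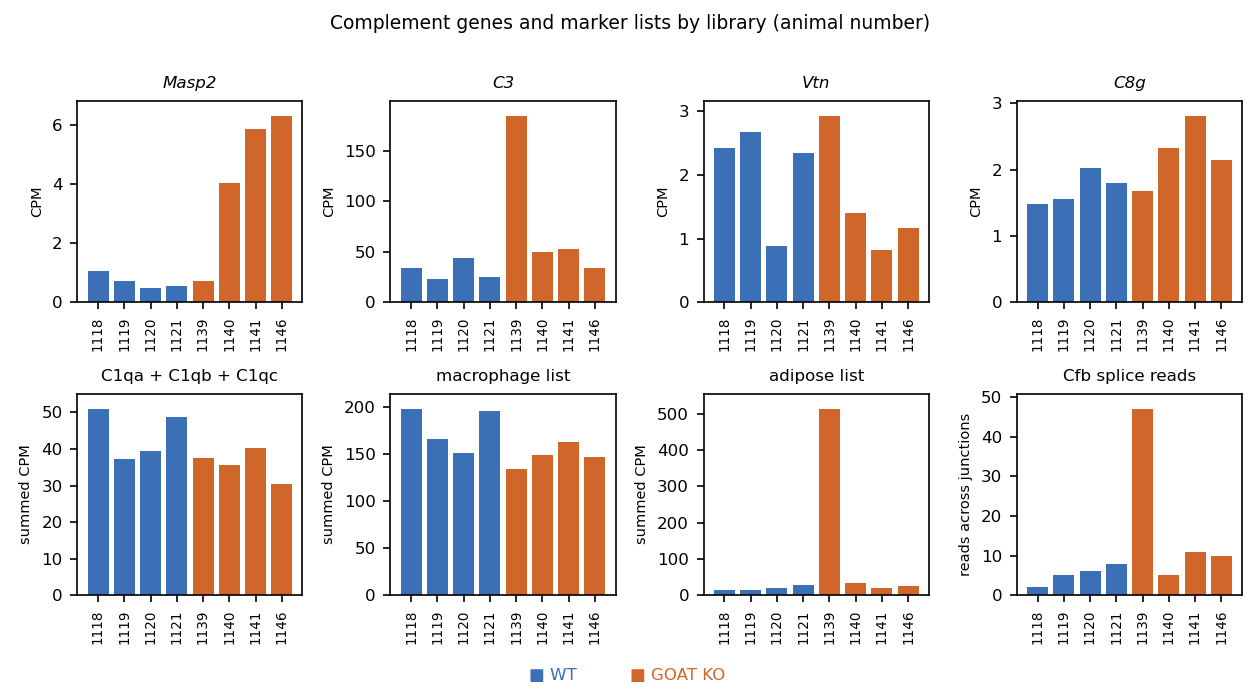
Level in each library, named by animal number (WT in blue, GOAT KO in orange), of *Masp2*, *C3*, *Vtn* and *C8g* in CPM, of the 3 C1q chains, the macrophage list and the adipose list in summed CPM, and of reads across *Cfb* junctions. *C3*, the adipose list and the *Cfb* splice reads peak together in GOAT KO 1139, where *Masp2* stays at 0.7179 CPM.

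In the alternative pathway, *Cfp*, for properdin, which stabilises the C3 convertase, read 19.1 ± 1.99 CPM in the libraries labelled WT and 17.0 ± 2.28 in those labelled GOAT KO. Its log2 fold change was -0.17 ± 0.11 and it was not called. *Cfb*, for factor B, the catalytic subunit of that convertase, had 21 gene counts in all and stayed under the filter, yet 94 reads crossed its annotated junctions. They were 2, 5, 6 and 8 in the libraries labelled WT and 47, 5, 11 and 10 in those labelled GOAT KO. GOAT KO 1139 was again the highest, at 17.38 junction reads per 1000000 junction reads of the library against 0.7732 to 3.55 in the other 7. A gene with more splice reads than counts is counted only in part, so the counts of *Cfb* do not give its level. The annotation places *Gm20547*, a transcript on the same strand that had 0 counts in every library, over both *Cfb* and *C2*. Why reads of *Cfb* are missing from the counts was not tested. *C2* had 85.66 splice reads per 100 counts, the highest of the 24 complement genes with at least 100 counts, whose median was 12.4.

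**Figure D4:**
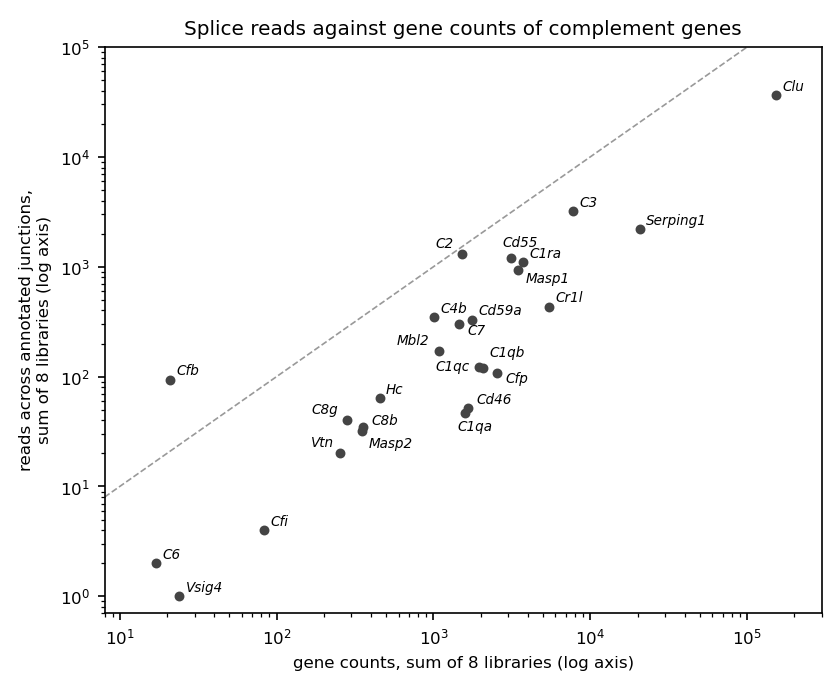
Reads across annotated splice junctions against gene counts of the complement genes, each summed over the 8 libraries (both axes logarithmic, dashed line at equal numbers). *Cfb* lies above the line with 94 splice reads and 21 counts, and *C2* lies just under it.

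The classical route opened with C1q, whose 3 chains are encoded side by side on the minus strand of chromosome 4. *C1qa* (chr4:136895917-136898803) read 14.37, 10.45, 10.87 and 13.85 CPM in the libraries labelled WT and 10.95, 11.85, 10.55 and 8.31 in those labelled GOAT KO. *C1qb* (chr4:136880129-136886187) read 19.27, 13.67, 14.1 and 18.15 CPM and 13.94, 12.65, 15 and 11.1 CPM. *C1qc* (chr4:136889804-136893065) read 17.35, 13.17, 14.49 and 16.74 CPM and 12.56, 11.06, 14.79 and 10.98 CPM. In each of the chains WT 1118 and WT 1121 were the highest libraries, GOAT KO 1146 was the lowest, and the rest were mixed. The log2 fold changes were -0.25 ± 0.14 for *C1qa*, -0.30 ± 0.14 for *C1qb* and -0.32 ± 0.13 for *C1qc*, with edgeR p of 0.11, 0.0494 and 0.0290 and an adjusted p of 0.983 for each. With 6 libraries they were -0.33, -0.39 and -0.35, with p of 0.0645, 0.0253 and 0.0386. None reached a change of 0.5, and none was called in either fit.

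The sum of the C1q chains ran from 37.28 to 50.98 CPM in the libraries labelled WT and from 30.39 to 40.34 CPM in those labelled GOAT KO. The 12 macrophage markers, all tested, were also lower in mean sum, but not every marker went that way. They summed to 151.6 to 198.2 CPM and to 134.7 to 162.8 CPM, with 10 negative and 2 positive log2 fold changes and a median of -0.24. Of them 3 were called lower with 8 libraries and 2 with 6, where 1.67% and 2.39% of all genes were called. None of the markers was at 0. WT 1118 and WT 1121 were also the highest libraries in that sum. The part of macrophage number in the C1q values was not tested.

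The other classical genes were not called. *C1ra*, for the protease that activates C1s, read 28.3 ± 5.68 and 25.3 ± 2.64 CPM, a log2 fold change of -0.16 ± 0.13. *C2*, for the protease subunit of the classical convertase, read 10.5 ± 0.573 and 11.2 ± 0.757 CPM (0.09 ± 0.09 on the log2 scale). As given above, *C2* had many splice reads for its counts, and whether these counts are complete was not tested. *C4b*, for the partner of C2, read 6.91 ± 1.03 and 7.48 ± 2.19 CPM (0.11 ± 0.20 on the log2 scale), highest in GOAT KO 1139 at 10.53 CPM and turning to -0.10 without that library. *C1ra* and *C4b* have close copies in the genome, *C1rb* and *C4a*, and reads shared with these may be lost or split. The median log2 fold change of the 6 classical genes was -0.20 with 8 libraries and -0.28 with 6.

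In the terminal pathway no gene was called with 8 libraries and 1 with 6. *C8g*, for the lipocalin-like chain of C8, read 1.487, 1.556, 2.031 and 1.799 CPM in the libraries labelled WT and 1.675, 2.322, 2.815 and 2.15 in those labelled GOAT KO. All but GOAT KO 1139 were above all WT libraries. The log2 fold change was 0.38 ± 0.20 (edgeR p of 0.0828), and with 6 libraries 0.59 ± 0.21 (edgeR p of 0.0178, adjusted p = 0.452). *C8g* overlaps *Fbxw5* on the other strand, which had 1413 to 1963 counts per library, and its 40 splice reads were 0, 0, 9 and 9 against 4, 6, 3 and 9, so the groups overlapped in this readout.

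*C7*, for a component of the pore, read 12.58, 12.61, 7.738 and 13.3 CPM in the libraries labelled WT and 7.957, 10.69, 7.371 and 11.27 in those labelled GOAT KO. WT 1120 was low and the groups overlapped through it. The log2 fold change was -0.31 ± 0.19 and with 6 libraries -0.40 ± 0.15 (edgeR p of 0.0241), under the threshold of 0.5. *Hc*, for C5, whose cleavage starts the terminal pathway, read 3.36 ± 0.668 and 3.11 ± 0.379 CPM. *C8b*, for the beta chain of C8, read 2.36 ± 0.369 and 2.73 ± 0.450 CPM. Neither was called in either fit. *C8b* lies 21472 bases after *Dab1*, which had 17 to 18 counts in the libraries labelled WT and 76 to 142 in the libraries labelled GOAT KO. *C8b* showed no such separation.

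The rest of the pore genes were under the filter, with 17 counts in all for *C6*, 8 for *C8a* and 10 for *C9*, which encodes the subunit that lines the pore. At this depth a difference in them was not detectable. No read crossed a junction of *C8a* or *C9*, and 2 crossed junctions of *C6*. The terminal genes were thus read unevenly, with *C7* near 10 CPM and *C6* and *C9* at a few counts in the whole series.

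Among regulators in fluid, *Vtn*, for vitronectin, which keeps the terminal complex from inserting in membranes, depended on the libraries used. It read 2.416, 2.667, 0.8781 and 2.344 CPM in the libraries labelled WT and 2.932, 1.405, 0.819 and 1.162 in those labelled GOAT KO. WT 1120 was as low as the lower GOAT KO libraries and GOAT KO 1139 was the highest of all. With 8 libraries the log2 fold change was -0.40 ± 0.41 (edgeR p of 0.348). With 6 libraries it was -1.15 ± 0.24 (edgeR p of 0.000638, adjusted p = 0.202), and without GOAT KO 1139 alone it was -0.89 (edgeR p of 0.0348). The call of *Vtn* thus depended on the libraries left out.

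*Clu* read 1135 ± 134 CPM in the libraries labelled WT and 1059 ± 70.5 CPM in those labelled GOAT KO, a log2 fold change of -0.10 ± 0.09. *Serping1* read 149 ± 23.5 and 145 ± 3.65 CPM, a log2 fold change of -0.04 ± 0.10. Both differences were smaller than the SD of the libraries labelled WT, and the groups overlapped. *Cfi*, for factor I, the protease that inactivates C3b, read 0.579 ± 0.0308 and 0.610 ± 0.313 CPM, from 5 to 17 counts, with GOAT KO 1139 at 1.017 CPM the highest. *C4bp*, for the C4b-binding protein, had 2 counts in all.

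Regulators on membranes differed little between the groups. *Cd55*, for decay-accelerating factor, read 22.1 ± 0.339 and 22.0 ± 2.45 CPM. *Cd46*, for a cofactor of factor I, read 11.9 ± 0.892 and 11.9 ± 1.14 CPM. *Cr1l*, for Crry, the rodent regulator with both activities, read 39.6 ± 4.11 and 37.9 ± 1.02 CPM. *Cd59a*, for the blocker of C9 insertion, read 12.1 ± 2.04 and 13.1 ± 1.084 CPM. Their log2 fold changes were -0.01 ± 0.09, 0.00 ± 0.10, -0.06 ± 0.08 and 0.11 ± 0.13, and with 6 libraries 0.05, 0.01, -0.13 and -0.04. None was called, and the sign of *Cd55*, *Cd46* and *Cd59a* differed between the fits.

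Splice reads of these genes did not all follow the counts. *Cd59a* had 11.6, 10.15, 10.01 and 13.13 normalized junction reads in the libraries labelled WT and 17.01, 17.3, 19.45 and 17.04 in those labelled GOAT KO, so the groups did not overlap, while its counts overlapped. *Masp1* had 33.63, 35.17, 37.56 and 39.05 in the libraries labelled WT and 44.01, 39.11, 45.38 and 52.9 in those labelled GOAT KO, again without overlap. These were 2 of the 23 complement genes with at least 20 junction reads, where 374 of 12142 genes or 3.08% had no overlap. *Cr1l* went the other way with overlap, at 15.74 to 27.83 and 8.65 to 19.53 normalized junction reads. *Cd59a* has a close copy, *Cd59b*, and spliced reads were not tested.

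Receptors for the complement fragments were low. *C3ar1*, for the receptor of C3a, read 4.522, 3.223, 3.238 and 5.452 CPM in the libraries labelled WT and 2.273, 4.094, 3.174 and 2.499 in those labelled GOAT KO. The groups overlapped, and the log2 fold change was -0.45 ± 0.23 (edgeR p of 0.0820). It was called in the fits without WT 1120 alone (-0.55) or without GOAT KO 1140 alone (-0.63), and not when any other single library was left out. *C5ar1*, for the receptor of C5a, read 1.02 ± 0.274 and 0.786 ± 0.215 CPM, a log2 fold change of -0.37 ± 0.28, and -0.59 with 6 libraries (edgeR p of 0.0986). *Vsig4*, for a receptor of tissue macrophages that binds C3b, had 24 counts in all, 1 to 5 per library. These receptors are expressed by myeloid cells, whose markers are given above beside C1q.

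Of 30 other complement genes, 18 passed the filter and 3 were called with 8 libraries, *Cfd* higher and *C1s2* and *Cfhr2* lower. With 6 libraries 2 were, the same *C1s2* and *Cfhr2*. The share called was 16.67% with 8 libraries and 11.11% with 6, where 1.67% and 2.39% of all genes were called. The median log2 fold change of the 18 was -0.03 with 8 libraries and 0.01 with 6. *C1s2*, for a copy of the C1s protease, read 3.34 ± 0.817 and 2.34 ± 0.309 CPM, a log2 fold change of -0.51 ± 0.21 (edgeR p of 0.0338), and -0.73 with 6 libraries. Its call was lost with limma-voom (-0.47) and without any 1 of WT 1118, WT 1119, WT 1121, GOAT KO 1140 and GOAT KO 1146 (-0.48 to -0.42). *C1s1*, the main gene of that protease, read 113 ± 22.0 and 95.7 ± 6.48 CPM, a log2 fold change of -0.24 ± 0.12, and -0.37 ± 0.09 with 6 libraries (edgeR p of 0.00170). *Cfhr2* read 1.68 ± 0.933 and 0.790 ± 0.211 CPM, a log2 fold change of -1.09 ± 0.37 (edgeR p of 0.0145). WT 1119 was the highest library at 3.056 CPM, and without it the log2 fold change was -0.63 (edgeR p of 0.0446). Their adjusted p was 0.983 each with 8 libraries. *C1s1* and *C1s2* are close copies of each other, and *Cfhr2* belongs to a family of similar genes, so reads may be split among them. Of the 8 hepatocyte markers, 2 passed the filter, *Serpina1a* and *Fgb* had no count in any library, and *Alb* had 20 counts in all. The list summed to 76.98 to 87.78 CPM and 77.4 to 86.47 CPM in the groups, nearly all of it from *Apoa1* at 80.5 ± 4.95 and 79.6 ± 4.23 CPM.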

How the data were processed

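The authors sequenced 1 library per ovary, aligned reads with TopHat2 2.0.14 (mm10, GRCm38) and deposited whole-number counts per gene symbol, without normalization. Splice junction counts per library were also deposited, and the percent of reads mapped or on one feature was computed by the authors. Transcripts assembled by the authors with StringTie 1.0.4 carry a constant score and were not used. The counting tool and use of strand are not given in the sources used here.

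Counts were tested with edgeR 4.0.16 in R 4.3.3: TMM scaling, filterByExpr (at least 10 counts in a median library in 4 libraries, 15 in all), quasi-likelihood test and Benjamini-Hochberg adjustment over all genes. The SE is the log2 fold change over the square root of F. CPM are given as mean ± SD. The test was tried on simulated data. Replicates of a group differed by more than sampling noise (chi-square per gene 4.217 to 27.11) and each counts as 1. Among WT libraries the pairs with WT 1120 were highest (17.89 to 27.11). Among GOAT KO libraries the pairs with GOAT KO 1139 were highest (11.84 to 15.17). The p-values cover the spread between these animals, and floors of 3 counts cover counting error only. Positions, exon lengths and introns come from GENCODE on GRCm38 of a later release, promoters from RefSeq on GRCm38.p6. Junction reads were assigned by exact intron and strand.

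The members, lists, marker genes and the set of 6 libraries were chosen with earlier results of these data known. All 32 members are accounted for. Other complement genes are named where called in either fit or needed for a role. Marker lists are given as sums, apart from the adipose and hepatocyte genes named above. Alternatives were RLE size factors, DESeq2 1.42.0, limma-voom of limma 3.58.1, no filter, the 6 libraries and leaving out each library. Background shares of junction reads were added after the values were seen.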

Additional observations from a re-analysis of the deposited data

Results flagged for a closer look

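In 4 of 50 groups of 4 libraries, over the 25 tested complement genes, the highest or lowest library stood apart by more than Dixon's 95% limit, and chance marks about 1 group in 20. *C3* in GOAT KO 1139 read 185 CPM where the other 3 libraries labelled GOAT KO read 33.59 to 53.03. *C7* in WT 1120 read 7.738 CPM, where the others of its group read 12.58 to 13.3. *C8b* in WT 1118 read 2.912 CPM against 2.126 to 2.25. *Cd59a* in GOAT KO 1139 read 14.66 CPM against 12.29 to 12.65. The libraries of the first, second and last of these are the ones left out in the set of 6.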

How the results depend on the processing

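The log2 fold changes of 28 complement genes gave 363 values under alternatives. Of these, 329 kept their direction and their side of the threshold, 9 lost a call (*C1s2* and *Cfd*), 5 gained one and 20 turned in sign, in 9 genes that were not called with 8 libraries. *Masp2* and *C3* were called under every alternative. With 6 libraries the complement genes called rose from 2 to 4, and those with an adjusted p under 0.05 from 0 to 1, as with DESeq2 (1) and without GOAT KO 1139 (1). Leaving out 1 library at a time gave 2 to 3 called and 0 to 1 adjusted. Over all genes, calls went from 278 to 691 without a filter and to 231 to 437 with 1 library left out, 437 without WT 1120. Adjusted calls went from 4 to 20 with 6 libraries, 13 with DESeq2, 7 without a filter and 3 to 14 with 1 library left out, 14 without GOAT KO 1139. Other complement genes called went from 3 to 1 with limma-voom and 5 without a filter. *Cfd* lost its call with 6 libraries, with limma-voom and without GOAT KO 1139. DESeq2 gave no p for *Cfd* and called 2 of the other complement genes. Signs turned with 6 libraries in *Cfi* (-0.3210), *Cd55* (0.0458), *Cd46* (0.0064) and *Cd59a* (-0.0421), and in *Cfi* with limma-voom (-0.0736). With 1 library left out they turned within *C4b* (-0.0981 to 0.2161), *Masp1* (-0.0634 to 0.0920), *Mbl2* (-0.0643 to 0.1556), *Hc* (-0.2081 to 0.0085), *Serping1* (-0.1097 to 0.0577), *Cfi* (-0.2944 to 0.2852), *Cd55* (-0.0847 to 0.0422) and *Cd46* (-0.0608 to 0.0483). The cause was not tested. No analysis paired by litter was possible, because the labels do not give the litter of any animal. Whether litters were spread evenly over the groups could not be checked. Depth limits the 7 genes under the filter.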
